A study of Mus musculus with 30 samples.

Results

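Histone H3 acetylated at lysine 27 (H3K27ac) was compared between lymphoid progenitors and mature B cells of mice with intact Crebbp, to describe which acetylated regions belong to normal lymphoid maturation. The progenitors (Lin- IL7ra+) carried the alpha chain of the IL-7 receptor and no lineage markers. They were sorted from lineage-depleted bone marrow, and gave 1 library. The B cells were sorted from spleen by the surface marker B220 and gave 2 libraries, called B cells 1 and B cells 2 below. All came from C57BL/6 mice that carried floxed Crebbp alleles without the Mx-Cre transgene (CBPfl/fl:Mx-Cre-), which the labels call wild type, and all were precipitated with the same H3K27ac antibody. The animals' age is not in the labels, and nothing there says whether the B cell libraries came from separate mice, so differences between these 2 lists may be technical. Progenitors and B cells also differed in organ and in sort, and cell stage and organ cannot be told apart. The peak lists of the 3 libraries merged into 33153 regions, and 26469 of these fell into 3 classes. Progenitor-only regions had a peak in the progenitor list and in neither B cell list, and numbered 1790. B-cell-only regions had a peak in both B cell lists and none in the progenitor list, and numbered 13027. Shared regions had a peak in all 3 lists, and numbered 11652. With 1 library against 2, an exact permutation test cannot go below p = 0.333, so every difference below is a description without a test.

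H3K27ac is laid down by the acetyltransferases CBP and p300 and marks active promoters and enhancers, the stretches of DNA from which transcription factors drive genes. Lymphoid progenitors depend on the IL-7 receptor for survival, switch on the recombinase genes Rag1 and Rag2 together with the DNA polymerase gene Dntt, and then rearrange their antigen receptor genes. Cells that commit to the B lineage do so under E2A, Ebf1 and Pax5, and leave the bone marrow once they carry a B cell receptor. Mature B cells of the spleen carry receptors for complement, IgE, B cell survival factors and chemokines, and present antigen on MHC class II molecules.

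The contrast is shown first at the promoters of genes that define each end of this path. Each sequence below is the RefSeq window from 250 bases before to 50 bases after an annotated transcription start (assembly GRCm38.p6), on the strand of the gene. Capitals mark matches, on either strand, to the ETS core GGAAGT, the octamer ATGCAAAT, the Runx motif TGTGGT, the EBF motif (TCCC and GGGA with 2 bases between them), the AP-1 motif TGANTCA, the GATA motif GATAAG and the cAMP response element TGACGTCA. The first 3 windows overlapped progenitor-only regions: Il7r (chr15:9529827-9530126, minus strand), Rag2 (chr2:101624462-101624761, plus strand) and Tcf7 (chr11:52282965-52283264, minus strand). The last 3 overlapped B-cell-only regions: Cr2 (chr1:195176670-195176969, minus strand), Fcer2a (chr8:3694125-3694424, minus strand) and Cd22 (chr7:30878979-30879278, minus strand).
Il7r: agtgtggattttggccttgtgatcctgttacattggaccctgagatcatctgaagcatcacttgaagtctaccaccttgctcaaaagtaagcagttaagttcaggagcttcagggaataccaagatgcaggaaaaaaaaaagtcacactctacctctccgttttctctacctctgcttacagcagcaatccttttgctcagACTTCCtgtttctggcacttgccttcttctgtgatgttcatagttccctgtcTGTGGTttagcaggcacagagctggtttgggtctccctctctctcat
Rag2: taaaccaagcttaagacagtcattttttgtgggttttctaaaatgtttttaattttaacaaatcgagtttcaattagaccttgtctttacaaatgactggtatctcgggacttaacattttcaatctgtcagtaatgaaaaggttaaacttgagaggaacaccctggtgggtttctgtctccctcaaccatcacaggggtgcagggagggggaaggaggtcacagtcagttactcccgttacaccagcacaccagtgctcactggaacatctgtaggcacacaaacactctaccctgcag
Tcf7: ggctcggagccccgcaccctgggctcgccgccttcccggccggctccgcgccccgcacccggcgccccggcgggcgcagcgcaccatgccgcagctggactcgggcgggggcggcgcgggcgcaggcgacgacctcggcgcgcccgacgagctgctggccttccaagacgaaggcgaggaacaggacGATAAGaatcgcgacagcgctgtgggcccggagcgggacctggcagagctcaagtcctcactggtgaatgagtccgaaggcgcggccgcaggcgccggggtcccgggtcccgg
Cr2: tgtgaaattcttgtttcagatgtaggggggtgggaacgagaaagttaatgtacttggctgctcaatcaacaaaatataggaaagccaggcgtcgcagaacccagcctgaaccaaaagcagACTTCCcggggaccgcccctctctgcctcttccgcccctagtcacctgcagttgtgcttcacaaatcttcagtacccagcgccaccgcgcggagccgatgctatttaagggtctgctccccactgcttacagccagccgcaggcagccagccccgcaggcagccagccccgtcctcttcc
Fcer2a: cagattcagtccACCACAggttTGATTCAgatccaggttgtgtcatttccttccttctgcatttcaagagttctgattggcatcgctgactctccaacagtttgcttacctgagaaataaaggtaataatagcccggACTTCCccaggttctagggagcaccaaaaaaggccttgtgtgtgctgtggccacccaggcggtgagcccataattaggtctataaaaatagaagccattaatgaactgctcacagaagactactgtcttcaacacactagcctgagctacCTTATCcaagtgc
Cd22: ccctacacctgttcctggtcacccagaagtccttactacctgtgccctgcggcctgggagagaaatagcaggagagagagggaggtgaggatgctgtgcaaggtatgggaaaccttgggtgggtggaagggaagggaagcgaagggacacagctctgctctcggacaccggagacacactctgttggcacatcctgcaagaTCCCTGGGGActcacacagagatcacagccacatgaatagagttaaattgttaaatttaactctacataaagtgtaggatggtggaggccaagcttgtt

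The region over most of the Il7r window was 282 bp in the progenitor list and covered 196 of the 300 bases of the window. That over Rag2 was 480 bp and covered only the last 13 bases of its window, since it lay mostly downstream of the start. That over Tcf7, a transcription factor gene of early T and innate lymphoid cells, was 296 bp and covered 172 bases. Neither B cell list had a base of any of these 3 regions. The Crebbp-null progenitor library (CBPfl/fl:Mx-Cre+), which the classes do not use, covered 208 bp of this Il7r region and 209 bp of the Rag2 region but nothing of the Tcf7 region. A second progenitor-only region, of 1350 bp (chr15:9528528-9529877), covered the last bases of the Il7r window. The regions over most of each B cell window were wider than the 3 named first. Around the start of Cr2, which encodes complement receptor 2, the progenitor list had 0 bp, against 1185 bp in B cells 1 and 1296 bp in B cells 2. At Fcer2a, the gene of the low-affinity IgE receptor CD23, it had 0 bp, against 2748 and 2514 bp. At this start of Cd22, the gene of an inhibitory co-receptor that binds sialic acid, it had 0 bp, against 1293 and 1338 bp. A match was found in 5 of the 6 windows, with 4 at Fcer2a and none at Rag2, and the EBF motif was in the Cd22 window alone of the 6. The ETS match of the Il7r window and the EBF match of the Cd22 window lay between regions, in bases that no list covered.

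Across the genome, acetylation in progenitors was mostly a subset of that in B cells. The progenitor list held 17124 peaks over 9.426 Mb, against 30523 peaks over 27.131 Mb in B cells 1 and 30198 peaks over 26.416 Mb in B cells 2. Of the bases in the progenitor list, 88.3% lay in the B cells 1 list and 87.7% in the B cells 2 list. In the other direction, the progenitor list held 30.7% of the bases of B cells 1 and 31.3% of those of B cells 2. The Jaccard index of covered bases was 29.5 and 30.0% between progenitors and the B cell lists, and 80.7% between the B cell lists. Progenitor-only regions made up 5.4% of all merged regions, B-cell-only regions 39.3% and shared regions 35.1%. Another 240 regions were shared by progenitors with B cells 1 alone and 170 with B cells 2 alone, while 3497 had a peak in B cells 1 alone and 2777 in B cells 2 alone. The lists give positions without heights or read numbers, so read depth is unknown, and the peak number and covered length of the lists moved with these counts. With each B cell list cut to its widest peaks until it covered no more than the progenitor list, the balance turned, with 12553 progenitor-only and 716 B-cell-only regions. When every list was shortened to the same peak number, it did not turn, with 3716 progenitor-only and 5467 B-cell-only regions.

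**Figure D1:**
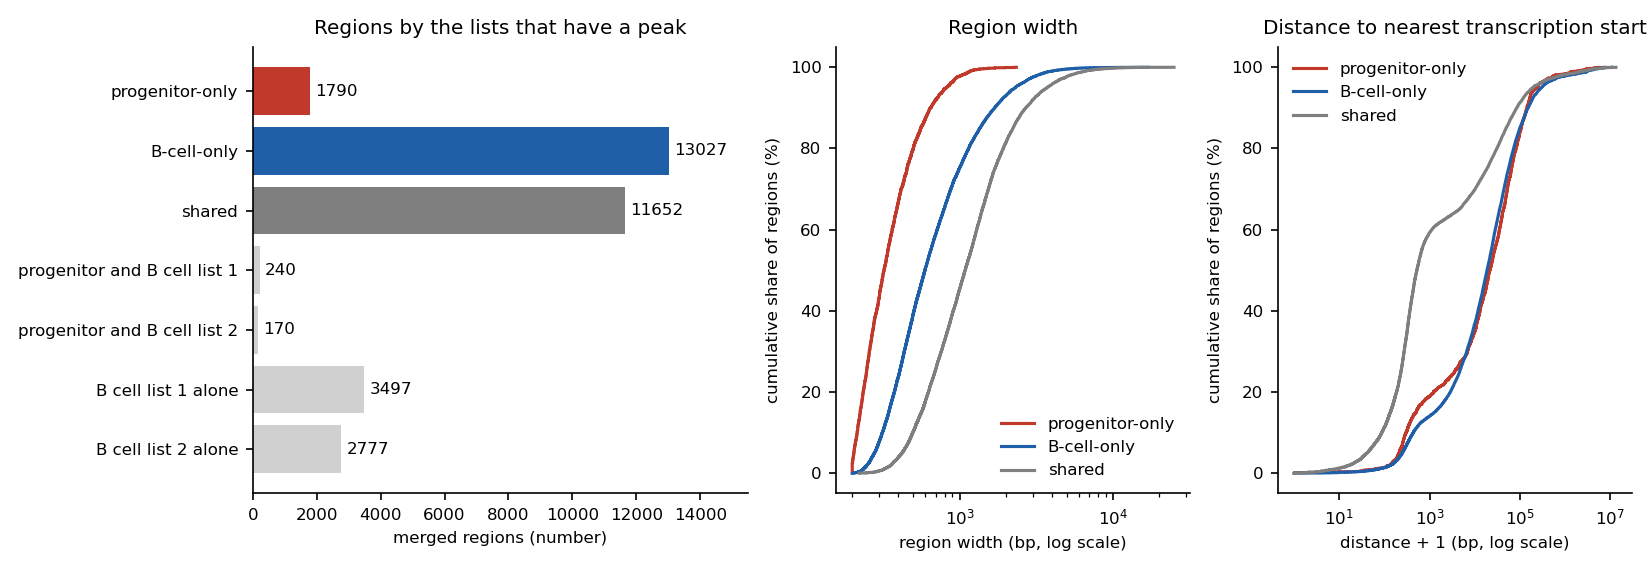
The bars on the left give the number of merged regions by the lists with a peak in them, the middle panel the cumulative share of regions (%) by region width (bp, log scale), and the right panel the cumulative share by distance from the region's centre to the nearest annotated transcription start (bp plus 1, log scale). Progenitor-only regions (red) were the narrowest, with a median of 322 bp, and shared regions (grey) lay closest to starts, with a median distance of 0.523 kb.

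Progenitor-only regions were few, narrow and mostly away from genes' ends. Their median width was 322 bp, against 595 bp for B-cell-only and 1089 bp for shared regions. Regions with a peak in B cells 1 alone or B cells 2 alone were narrower still, with medians of 251 and 249 bp. A progenitor-only region needed a peak in the single progenitor list, whereas a B-cell-only region needed one in both B cell lists and took their merged width. The widths of the classes are therefore not like for like. Of the 1790 progenitor-only regions, 2 reached 2 kb, as did 922 B-cell-only regions (7.08%) and 2180 shared regions (18.7%). They held 0.7 Mb, or 7.42% of the progenitor list, whereas the B-cell-only regions held 37.5 and 37.7% of the B cell lists. Gene ends were within 1 kb of 22.3% of progenitor-only regions and over 10 kb away from 53.8%, close to the 18.6 and 52.0% of B-cell-only regions. For shared regions the share within 1 kb was 67.6%. The median distance to an annotated start was 21.6 kb for progenitor-only, 18.7 kb for B-cell-only and 0.523 kb for shared regions, as the plot of widths and distances shows. A progenitor-only region was not necessarily far from acetylation in B cells, since 35.0% lay within 5 kb of a B cell peak, with a median distance of 13.1 kb. For B-cell-only regions, 34.3% lay within 5 kb of a progenitor peak, with a median of 11.6 kb.

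Most regions that both stages shared were wider in B cells. The median length covered in a shared region was 575 bp in progenitors, against 1019 bp in B cells 1 and 998 bp in B cells 2. Progenitor peaks were narrower than both B cell lists in 87.7% of the 11652 shared regions and wider than both in 6.51%. The median ratio of the progenitor length to the mean of the B cell lengths was 0.643. The widest shared region spanned 25000 bp over the MHC class II genes H2-Aa and H2-Eb1 (chr17:34285282-34310281), and of it the progenitor list covered 1347 bp, against 24830 and 24999 bp in the B cell lists. At Ago2, the gene of an Argonaute protein that carries small RNAs, the second widest (chr15:73146569-73166293), the progenitor list covered 9226 bp, against 19700 and 19518 bp.

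The widest one-sided regions lay at different genes. The widest progenitor-only region was 2346 bp inside Adgrg1, the adhesion receptor gene also known as Gpr56 (chr8:94976405-94978750). The next lay 11.9 kb from Gpr61, an orphan receptor gene (chr3:108166833-108169113, 2281 bp), inside the protease gene Tmprss3 (chr17:31190763-31192747, 1985 bp), inside 2900026A02Rik (chr5:113137430-113139133, 1704 bp) and inside Ramp1, a receptor partner gene of the calcitonin receptor family (chr1:91186907-91188600, 1694 bp). Each of these 5 also had H3K27ac in Crebbp-null progenitors, over 2171, 2281, 1746, 1407 and 1268 bp. The widest B-cell-only region spanned 16981 bp and lay 82.7 kb from the nearest gene, the collagen gene Col4a1 (chr8:11098695-11115675). The next were 12920 bp across the chemokine receptor gene Ccr6 (chr17:8231949-8244868), 12345 bp on the X chromosome 94.2 kb from the thymosin gene Tmsb4x (chrX:167100567-167112911), 12042 bp inside Dipk1a (chr5:107935992-107948033) and 11462 bp across Irf4, a transcription factor gene of B cell activation (chr13:30758996-30770457). Crebbp-null progenitors had no H3K27ac in 4 of these 5 and 289 bp at Irf4. These B-cell-only regions carried H3K18ac in both B cell libraries of that mark, from 1347 bp near Tmsb4x to 13676 bp near Col4a1.

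Lists that the classes were not built from were then read over the same regions. Crebbp-null progenitors, sorted by the same markers, had an H3K27ac peak in 773 of the 1790 progenitor-only regions (43.2%), in 158 of the 13027 B-cell-only regions (1.21%) and in 78.4% of shared regions. That library differed from the wild-type one in genotype and had a shorter list, of 13125 peaks, and the parts of both in the missing peaks cannot be told apart. The share depended on width. It was 21.8% of the 772 progenitor-only regions under 300 bp, 48.0% of the 658 from 300 to under 500 bp, 78.1% of the 320 from 500 to under 1000 bp and 97.5% of the 40 of 1000 bp or more. For B-cell-only regions it was between 0.697 and 1.37% in every one of these width classes. It was 52.5% for progenitor-only regions at gene ends and 40.4% for those beyond 10 kb.

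Other acetylation marks of wild-type B cells had peaks in fewer progenitor-only than B-cell-only regions. H3K18ac, another CBP-dependent mark of active regions, had a peak in 8.55 and 9.72% of progenitor-only regions in its 2 B cell libraries, against 40.2 and 42.0% of B-cell-only and 84.3 and 85.9% of shared regions. H3K56ac had one in 8.38 and 5.08% of progenitor-only regions, against 28.6 and 24.6% of B-cell-only and 88.2 and 85.0% of shared regions. The H3K18ac shares were larger in wider regions, and progenitor-only regions were the narrowest class, so classes were also compared at like width. H3K18ac was in 5.83 and 6.87% of progenitor-only regions under 300 bp, against 17.2 and 19.0% of B-cell-only regions of that width, and in 22.5 and 30.0% of the 40 progenitor-only regions of 1000 bp or more, against 66.3 and 68.2%. The single CBP library of wild-type B cells had 1000 peaks, and a peak of it lay in 2 progenitor-only regions (0.112%), 205 B-cell-only regions (1.57%) and 670 shared regions (5.75%). The unsorted spleen tissue labelled LPD, from Crebbp-/- mice, had H3K27ac in 23.5 and 15.4% of progenitor-only regions in its 2 libraries. For B-cell-only regions the shares were 55.7 and 40.8%. These LPD lists were longer than the B cell H3K18ac and H3K56ac lists, at 31924 and 27581 peaks. They had a peak in 62.2 and 52.2% of all merged regions. Both LPD libraries had H3K27ac in 265 progenitor-only regions (14.8%), and 141 of these also had it in Crebbp-null progenitors. A further 563 progenitor-only regions had H3K27ac in Crebbp-null progenitors and in neither LPD library. H3K18ac of LPD was in 31.7 and 25.8% of progenitor-only regions, against 59.4 and 45.9% of B-cell-only regions, and H3K56ac in 19.2 and 19.7%, against 37.2 and 40.0%.

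**Figure D2:**
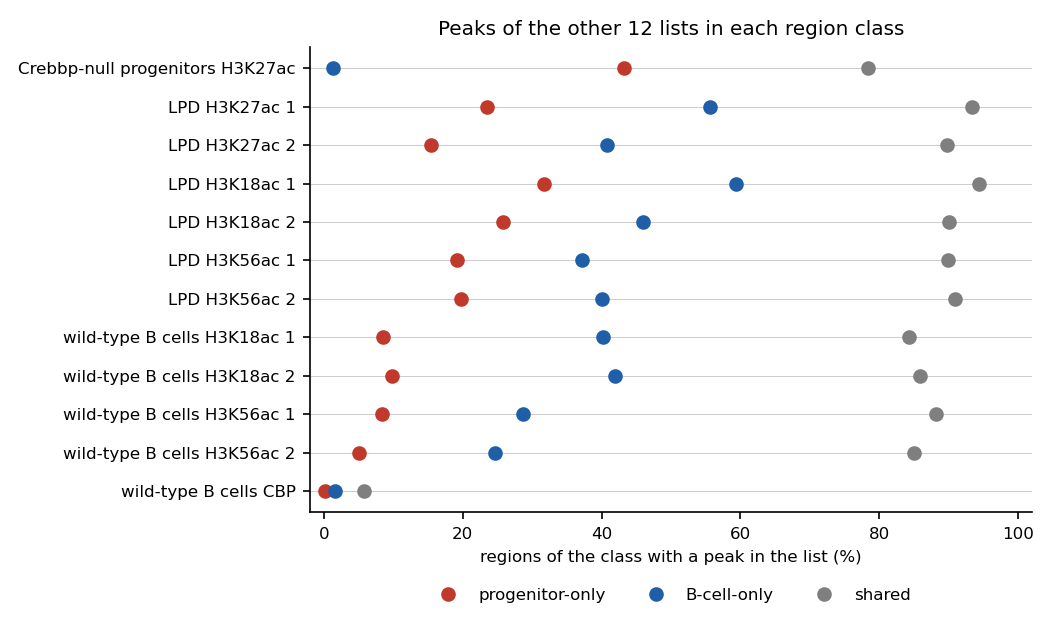
Each row is one of the 12 peak lists that the classes were not built from, and each point the share of a region class (%) with a peak in that list, for progenitor-only (red), B-cell-only (blue) and shared (grey) regions. The Crebbp-null progenitor list is the only row in which the progenitor-only share (43.2%) lies above the B-cell-only share (1.21%).

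Regions were next summed per gene. A region was assigned to all protein-coding genes it touched once 1 kb had been added at either side, or, failing that, to the closest gene up to 50 kb away, so the assignment is by position and does not show which gene a region acts on. Of 21883 genes, 11417 had a region. A progenitor-only region was assigned to 1038 genes (9.09%), a B-cell-only region to 5135 (45.0%) and a shared region to 9111 (79.8%). Of the 11417 genes, 327 had no B cell peak and so had a region through the progenitor list alone. Shares given for all genes below are over these 11417. A gene was called higher in progenitors when its covered length there was at least 2 times that of each B cell library and over 1 kb longer, and lower in the reverse case. By this rule 92 genes (0.806%) were higher and 2902 (25.4%) lower. The covered length over genes was itself shorter in progenitors, with a median log2 difference of -0.90 over all 11417 genes. When each value was divided by the covered length of its list, which multiplies the progenitor values 2.84 times relative to the mean B cell list, the median became 0.48, a shift of 1.38, and 2161 genes (18.9%) were higher and 1160 (10.2%) lower. Calls after this scaling are therefore given with the groups below. The scaling cannot undo a higher call, and it leaves a progenitor value of 0 kb at 0 kb. The progenitor value lay above or below both B cell values, without overlap, at 10801 of the 11417 genes (94.6%).

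**Figure D3:**
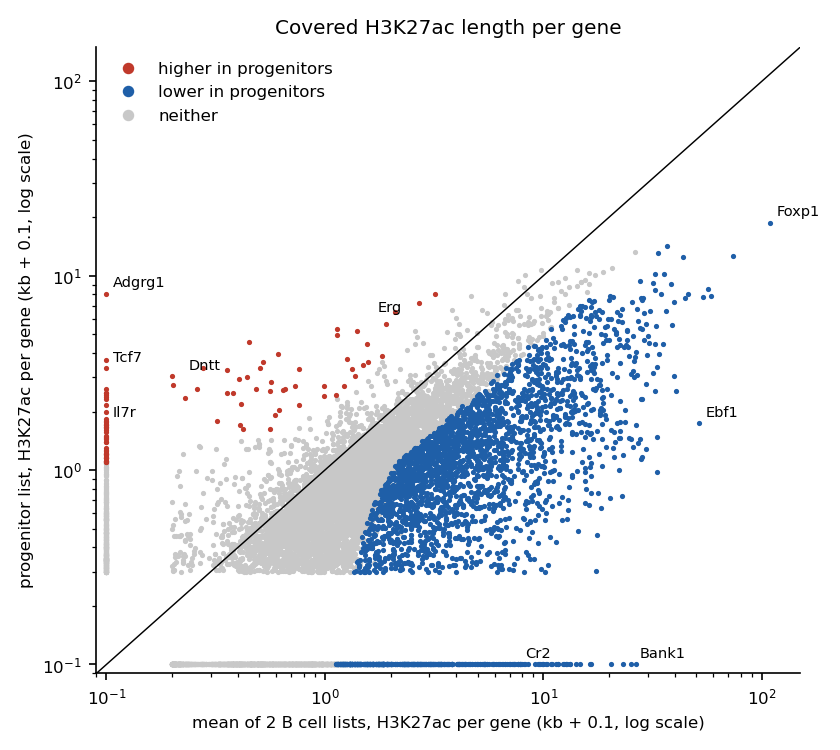
Each point is 1 of 11417 genes, with the length covered by H3K27ac in progenitors (kb plus 0.1, log scale) against the mean of the 2 B cell libraries on the same scale; the line marks equal length. Red points are the 92 genes called higher and blue points the 2902 called lower in progenitors, and Adgrg1, Tcf7 and Il7r stand at the left edge with no B cell peak.

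Of the 92 genes higher in progenitors, 45 had no peak in either B cell library. Their median covered length was 2.25 kb in progenitors and 0.101 kb in the mean of the B cell libraries. Crebbp-null progenitors had H3K27ac at 89 of the 92 (96.7%), against 74.5% of all genes with a region. The rule itself requires over 1 kb in wild-type progenitors at each of the 92. Of the 2902 genes lower in progenitors, 481 had no progenitor peak, and Crebbp-null progenitors had H3K27ac at 74.4%, near the share of all genes.

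Genes whose roles change over lymphoid maturation are described first. Il7r, which encodes the receptor chain used to sort the progenitors, had 1.63 kb in progenitors and 0 kb in both B cell libraries. Rag2 had 0.48 kb in progenitors and 0 kb in both, and Rag1, its partner, had no peak in any of the 3. Dntt, whose polymerase adds bases at antigen receptor joints, had 2.85 kb in progenitors, against 0.281 and 0.326 kb in B cells 1 and 2. Igll1, a surrogate light chain gene of pre-B cells, had 0.75 kb in progenitors and 0 kb in both B cell libraries. These 4 genes did not overlap between the stages, as was the case for 94.6% of all genes. Il7r and Dntt were past the rule for higher genes, Rag2 and Igll1 passed it only after scaling by list length, and Dntt no longer passed it when only its span and 1 kb around it were used. Kit, a cytokine receptor gene of early progenitors, had no peak in any list. Flt3, another early receptor gene, went against its name here, with 3.83 kb in progenitors and 8.74 and 8.27 kb in B cells, a log2 difference of -1.13 that became 0.35 after scaling.

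The mature markers stood on the other side. Cr2 had 0 kb in progenitors, against 6.97 and 8.21 kb in B cells 1 and 2. Fcer2a had 0 kb, against 3.39 and 3.08 kb, and Ms4a1, the gene of CD20, had 0 kb, against 5.65 and 5.48 kb. Cd22 had 1.13 kb in progenitors, against 10.9 and 10.8 kb in B cells, a log2 difference of -3.15. Ciita, the master regulator of MHC class II genes, had 0.601 kb in progenitors and 10.2 kb in each B cell library, a log2 difference of -3.87. These 5 genes were lower in progenitors as deposited, as were 25.4% of all genes with a region. Scaling by list length cannot change a progenitor value of 0 kb, so it bore only on Cd22 and Ciita. Both stayed lower, at -1.72 and -2.51, as were 10.2% of all genes after scaling. The longest B-cell-only region assigned to Cd22 lay upstream of it, 10.3 kb from an annotated start (chr7:30885861-30892842, 6982 bp).

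**Figure D4:**
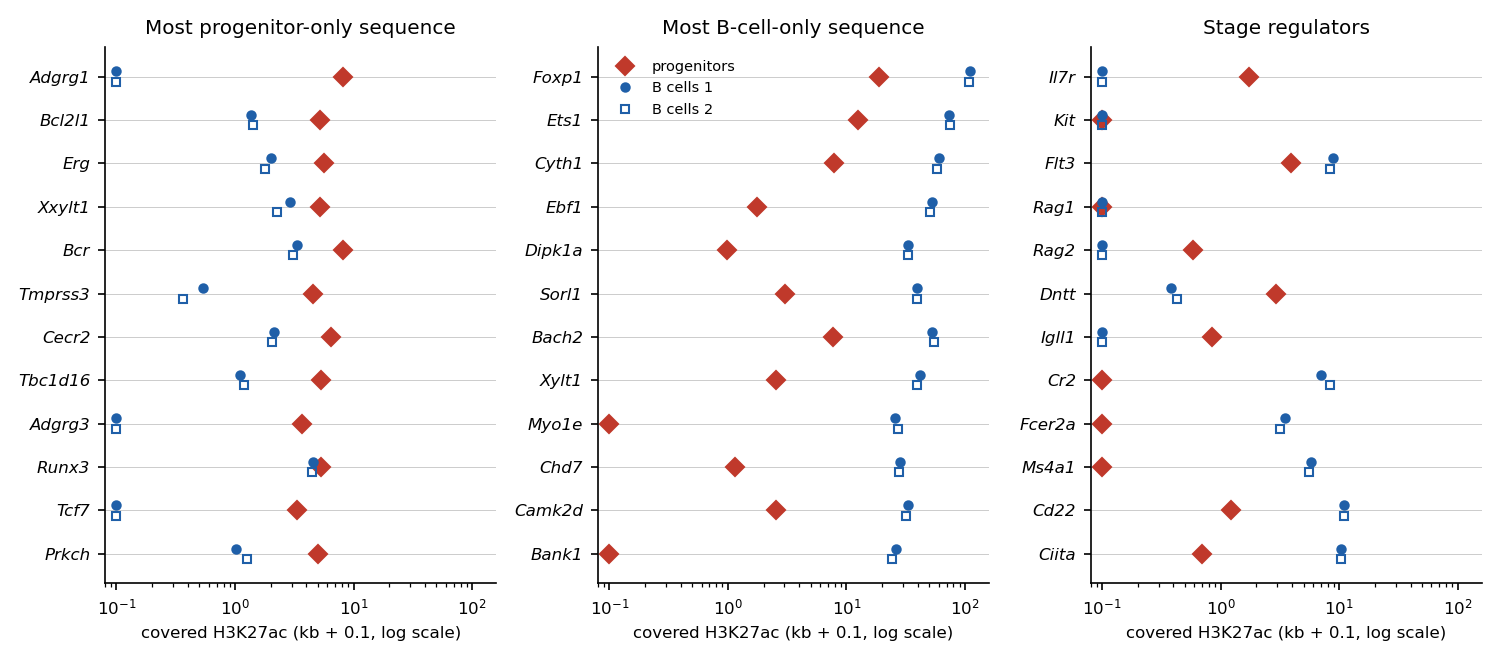
Length covered by H3K27ac per gene (kb plus 0.1, log scale) in progenitors (red diamonds), B cells 1 (filled blue circles) and B cells 2 (open blue squares), for the 12 genes with the most progenitor-only sequence, the 12 with the most B-cell-only sequence and 12 stage regulators. Adgrg1, Adgrg3, Tcf7, Il7r, Rag2 and Igll1 have no B cell value above 0, Bank1, Myo1e, Cr2, Fcer2a and Ms4a1 have no progenitor value above 0, and Kit and Rag1 have neither; Flt3 lies lower in progenitors as plotted but not after scaling by list length.

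Genes of early lymphoid and pre-B cells included members on both sides. Of 20 such genes 16 had a region, and 10 of these (62.5%) had a progenitor-only region, against 9.09% of all genes with a region. Il7r, Rag2, Igll1 and Sox4 had no B cell peak and were among the 16 through progenitor peaks alone. A B-cell-only region was at 6 of the 16 (37.5%), against 45.0% of all genes. By covered length 6 were higher in progenitors and 4 lower, with a median log2 difference of 1.58, and after scaling 10 were higher and 3 lower. Over all genes 0.806% were higher and 25.4% lower, and after scaling 18.9 and 10.2%. Sox4, a transcription factor gene needed for early B cell survival, had 2.40 kb in progenitors and 0 kb in both B cell libraries. Lef1, which encodes a Wnt-responsive factor of the Tcf7 family, had 2.40 kb in progenitors, against 0.558 and 0 kb. Notch1, the receptor gene that directs progenitors to the T lineage, had 4.34 kb in progenitors, against 1.70 and 1.21 kb in B cells. The chromatin gene Cecr2 had 6.41 kb in progenitors, against 2.03 and 1.95 kb, a log2 difference of 1.64 that was 0.43 when only its span and 1 kb were used. In none of these 4 did the progenitor value overlap the B cell values, as at 94.6% of all genes.

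The other 4 called members of this list were lower in progenitors. Blnk, the adaptor of B cell receptor signalling, had 3.14 kb in progenitors, against 17.7 and 15.9 kb in B cells. Satb1, a chromatin organiser gene, had 2.03 kb, against 12.9 and 13.3 kb. The chemokine receptor gene Ccr9 had 0.238 kb, against 4.81 and 4.87 kb, and Vpreb3, a B cell gene related to the surrogate light chains, had 0 kb, against 1.34 and 1.13 kb. Of these, Blnk was no longer called after scaling. All regions assigned to Ccr9 lay outside its span and the 1 kb around it. The surrogate light chain genes Vpreb1 and Vpreb2 had no peak in any list.

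Of 20 stem and progenitor cell genes, 10 had a region, 6 of them (60.0%) with a progenitor-only region, against 9.09% of all genes, and 8 (80.0%) with a B-cell-only region, against 45.0%. Erg, an ETS factor gene of blood stem cells and early progenitors (chromosome 16, 95359169 to 95586600), had 5.51 kb in progenitors, against 1.93 and 1.69 kb in B cells. It held 11 progenitor-only regions of 229 to 703 bp, all inside its span. Erg was the single higher member of the 10, against 0.806% of all genes, and Cd34, Lmo2, Lyl1 and Flt3 were lower (40.0%, against 25.4%). Lmo2, which encodes a bridging factor of stem cells and B cells, had 0.909 kb in progenitors, against 6.80 and 6.45 kb. Cd34, a stem cell surface marker, had 0.200 kb, against 4.11 and 3.63 kb. All regions assigned to Cd34 lay outside its span and the 1 kb around it. After scaling Erg and Runx1 were higher and Lmo2 and Cd34 lower, while Lyl1 (log2 0.07) and Flt3 were no longer called.

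Genes of T and NK cells also carried progenitor-only regions. Of 21 genes 11 had a region, 8 of them (72.7%) with a progenitor-only region, against 9.09% of all genes with a region. Tcf7, Nkg7, Zap70 and Il2rb had no B cell peak. They were among the 11 through progenitor peaks alone and could only count as progenitor-only. By covered length 5 (45.5%) were higher and 2 (18.2%) lower in progenitors, against 0.806 and 25.4% of all genes. Tcf7 (chromosome 11, 52246527 to 52283383) had 3.25 kb in progenitors and 0 kb in both B cell libraries, in 6 progenitor-only regions. Nkg7, a cytotoxic granule gene, had 1.66 kb in progenitors and 0 kb in both B cell libraries. Zap70, a kinase gene of T cell receptor signalling, had 1.56 kb, and Il2rb, the gene of the IL-2 receptor beta chain, 1.39 kb, each with 0 kb in both B cell libraries. Cd247, which encodes the CD3 zeta chain, had 2.74 kb in progenitors, against 0.426 and 0.503 kb. Scaling raises progenitor values against B cells, so these 5 genes stayed higher by construction. Klrb1c and Cd5 joined them after scaling and none of the list was lower, so that 7 were higher. Over all genes 18.9% were higher and 10.2% lower after scaling. Lck and Cd2 were the lower members as deposited. Lck, a kinase gene of T cell receptor signalling, had 2.15 kb in progenitors, against 7.52 and 7.42 kb, a log2 difference of -1.75 that was -0.29 after scaling. Cd2, an adhesion receptor gene, had 6.12 kb in progenitors, against 16.7 and 17.8 kb, a log2 difference of -1.48 that was 0.01 after scaling. The summed length over the list was 25.5 kb in progenitors, against 35.4 and 35.8 kb in B cells.

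The other lists of cell type markers were mostly without peaks, and so were 10 of the 21 T and NK cell genes. Cd3e, Cd3g, Cd4, Cd8a, Gata3, Bcl11b and Thy1 of T cells, and Ncr1, Tbx21 and Eomes of NK cells, had no peak in any of the 3 lists. Of 18 myeloid genes 13 had none, among them Mpo, Elane, Csf1r, Lyz2, S100a8 and Cd14, and the other 5 summed to 4.99 kb in progenitors, against 13.2 and 13.1 kb in B cells. Of those 5, 3 were lower, against 25.4% of all genes, and none was higher before or after scaling. After scaling 2 were lower, against 10.2%, but both had 0 kb in progenitors, which scaling cannot change. With the span and 1 kb only, 2 myeloid genes had a region and none was lower. Of 14 erythroid and megakaryocyte genes 12 had none, Gata1 and both haemoglobin genes included, and the 2 with a peak summed to 0.477 kb in progenitors, against 2.14 and 1.49 kb, with no call before or after scaling. Of 12 innate lymphoid genes 5 had a peak, and 1 of these, Rora, had progenitor-only regions. Icos, a T cell co-stimulatory receptor gene, was the 1 lower member of that list, before and after scaling, and none was higher. That is 20.0% lower as deposited, near the 25.4% of all genes. Icos had 0 kb in progenitors, and its region lay outside its span and the 1 kb around it. None of the 15 genes of tissues other than blood had a peak in any list. All 15 housekeeping genes had a shared region, against 79.8% of all genes with a region. Markers of the labelled cells were mixed. Il7r had peaks in progenitors alone, Cd79a and Cd79b had them in all 3 libraries, and Kit and Rag1 in none. Of 20 stem and progenitor cell genes 10 had no peak. Of the other 10, 4 were lower in progenitors and 1 higher as deposited, and 2 were lower and 2 higher after scaling. The T and NK cell genes named above moved with the progenitor library, and the part of other cells in this was not tested.

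The genes with the most progenitor-only sequence were mostly outside the marker lists. Adgrg1 led with 10 regions and 7.98 kb, all inside its span (chromosome 8, 94974756 to 95014208), and 0 kb in both B cell libraries. Its neighbour Adgrg3, a related adhesion receptor gene (chromosome 8, 95017113 to 95045250), had 3.60 kb in 6 regions and likewise 0 kb in B cells. Crebbp-null progenitors had 5.15 kb at Adgrg1 and 1.32 kb at Adgrg3. Bcl2l1, which encodes the survival protein Bcl-xL, had 5.10 kb in progenitors, against 1.27 and 1.32 kb in B cells. Its 6 progenitor-only regions lay inside the gene, 11.8 to 39.3 kb from the nearest annotated start. Bcr, the breakpoint cluster region gene, had 7.97 kb, against 3.21 and 2.97 kb. Tmprss3 had 4.46 kb, against 0.437 and 0.261 kb, Tbc1d16, a Rab GTPase regulator gene, 5.20 kb against 0.995 and 1.08 kb, and Prkch, a protein kinase C gene, 4.87 kb against 0.912 and 1.17 kb. Xxylt1 and Runx3 were not past the rule as deposited, although both held much progenitor-only sequence. Both were past it after scaling, at log2 differences of 2.49 and 1.72. Runx3, a factor gene of T and innate lymphoid cells, had 5.16 kb in progenitors, against 4.45 and 4.34 kb, with 9 progenitor-only, 3 B-cell-only and 3 shared regions.

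Transcription factor genes of the B lineage were mostly lower in progenitors, and Foxp1, Ets1, Ebf1 and Bach2 were 4 of the 12 genes with the most B-cell-only sequence. All 24 had a region, 21 (87.5%) with a B-cell-only and 4 (16.7%) with a progenitor-only region, against 45.0 and 9.09% of all genes. By covered length 20 of 24 were lower in progenitors and none higher, with a median log2 difference of -2.43, and after scaling 12 were lower and 3 higher. That is 83.3% lower as deposited, against 25.4% of all genes. After scaling 10.2% of all genes were lower and 18.9% higher. Ebf1 had 1.65 kb in progenitors, against 52.5 and 50.9 kb in B cells, with 30 B-cell-only and 3 shared regions. Pax5, which fixes B cell identity, had 1.94 kb in progenitors and 23.4 kb in each B cell library. Foxp1, needed in early B cell development, had 18.7 kb in progenitors, against 111 and 107 kb, with 51 B-cell-only regions but also 4 progenitor-only ones. Ets1 had 12.5 kb, against 73.2 and 74.4 kb, and Bach2, a repressor that holds back plasma cell fate, 7.68 kb, against 52.7 and 55.0 kb. All 5 stayed lower after scaling, with log2 differences of -3.44 for Ebf1, -2.07 for Pax5, -1.04 for Foxp1, -1.06 for Ets1 and -1.30 for Bach2. Tcf3, the gene of E2A, had 1.67 kb in progenitors, against 3.79 and 3.85 kb, and was no longer called after scaling, at a log2 difference of 0.30. The 3 higher after scaling were Id2, Id3 (log2 difference 1.25) and Runx3 (1.72). Id2, which encodes an inhibitor of E proteins, had only 0.353 kb in progenitors and 0 kb in both B cell libraries.

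Genes of B cell receptor signalling and of mature B cell receptors were nearly all lower in progenitors as deposited, though fewer of the signalling genes were after scaling. Of 22 signalling genes 21 (95.5%) were lower in progenitors, against 25.4% of all genes, and 19 (86.4%) had a B-cell-only region, against 45.0%. After scaling 10 of the 22 were lower and none higher, against 10.2 and 18.9% of all genes. Bank1, a scaffold gene of receptor signalling, had 0 kb in progenitors, against 26.3 and 24.0 kb in 29 B-cell-only regions. Pik3ap1 had 7.56 kb, against 45.4 and 43.7 kb, and Prkcb 2.22 kb, against 28.2 and 27.7 kb. The receptor chain genes Cd79a and Cd79b had 1.59 and 1.96 kb in progenitors, against 5.57 and 4.91 kb for Cd79a and 4.37 and 4.67 kb for Cd79b in B cells, and neither was called after scaling, at log2 differences of -0.20 and 0.29. Of the 25 mature receptor genes 24 (96.0%) were lower, and 22 still were after scaling. Ccr6 had 0 kb in progenitors, against 20.3 and 20.2 kb. Cd83, an activation marker gene, had 1.06 kb, against 28.3 and 27.9 kb, and S1pr1, whose receptor guides lymphocytes out of tissues, 1.36 kb, against 25.2 and 24.0 kb. Cxcr4, the homing receptor of the bone marrow, was the exception, with 10.4 kb in progenitors, against 18.7 and 18.5 kb, and 2 progenitor-only regions.

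Genes of antigen presentation were mostly lower too. None of 15 genes of MHC class II presentation had a progenitor-only region, 12 (80.0%) had a B-cell-only region and 12 (80.0%) were lower in progenitors, against 45.0 and 25.4% of all genes. After scaling 9 were lower and none higher, against 10.2 and 18.9% of all genes. H2-Aa had 1.35 kb in progenitors, against 25.1 and 25.2 kb in B cells, and shared its widest region with H2-Eb1. Cd74, the gene of the invariant chain, had 0.387 kb, against 14.3 and 14.4 kb. Rfxank, which encodes a subunit of the class II promoter complex, had 1.09 kb, against 1.66 and 1.58 kb, and was not called. Of 10 germinal centre and plasma cell genes with a region, 5 were lower and none higher, against 25.4 and 0.806% of all genes. After scaling 3 were lower, against 10.2%. With the span and 1 kb only, 2 of 9 were lower, near the 21.8% of all genes counted that way. Rgs13 had 0 kb in progenitors, against 6.83 and 7.07 kb, whereas Bcl6, the central germinal centre repressor, had 2.21 kb, against 3.90 and 4.09 kb, and was not called. At the immunoglobulin constant regions, Igkc had 0.825 kb in progenitors and 2.32 kb in each B cell library. Ighm had 0 kb in progenitors, against 0.958 and 1.10 kb. Trac, the T cell receptor alpha constant region, had 2.16 kb in progenitors, against 3.20 and 3.29 kb in B cells.

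**Figure D5:**
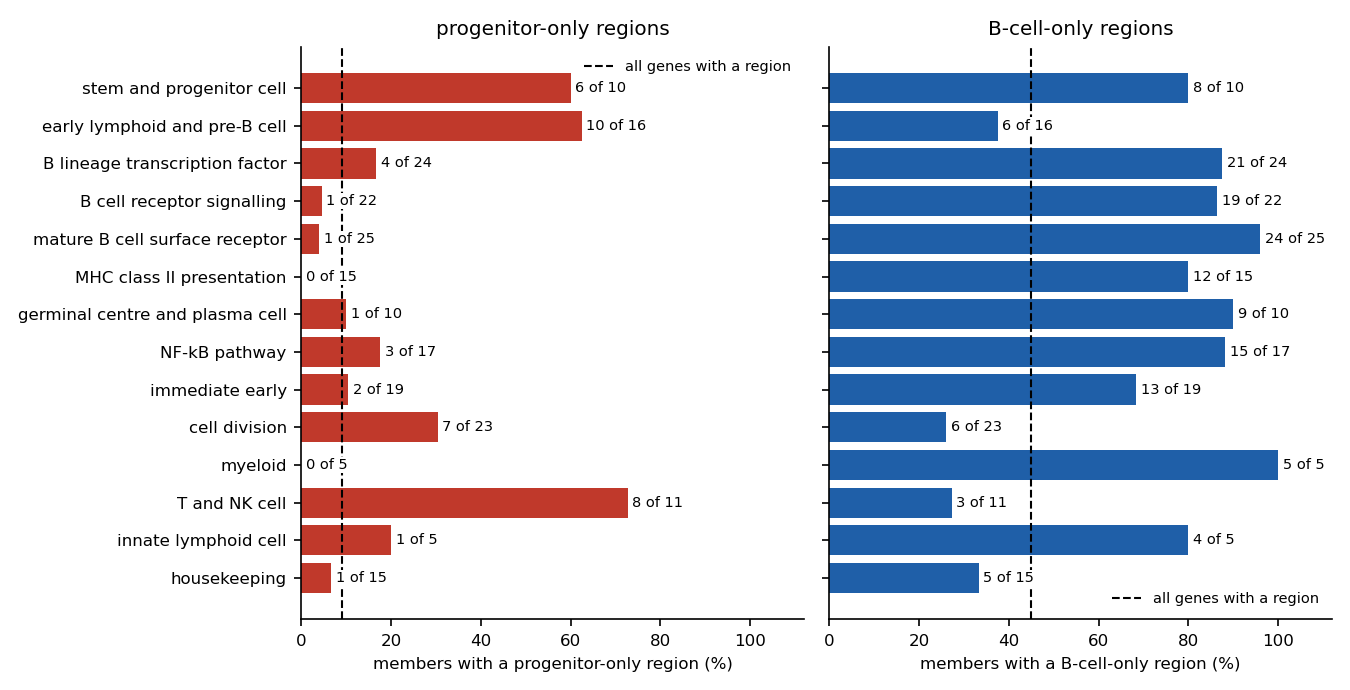
Share of the members of each gene list with a region (%) that had a progenitor-only region (left, red) and a B-cell-only region (right, blue), with the number of members beside each bar; dashed lines mark the same share over all 11417 genes with a region, 9.09 and 45.0%. The early lymphoid, stem cell and T and NK cell lists stand at 60.0% or more on the left, and the mature B cell receptor list stands at 96.0% on the right.

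Shared regions were common among the NF-kB pathway and immediate early genes, as among most genes. Over all genes with a region 79.8% had one. The share was 95.8% for B lineage transcription factor genes, 86.7% for MHC class II genes and 86.4% for B cell receptor signalling genes. All 17 NF-kB pathway genes had a shared region, and 11 (64.7%) were lower and none higher in progenitors, against 25.4 and 0.806% of all genes. After scaling 1 was lower and 1 higher, no more than the 10.2 and 18.9% of all genes. Nfkb1 had 6.87 kb in progenitors, against 14.8 and 15.1 kb, a log2 difference of -1.11 that was 0.38 after scaling. All 19 immediate early genes had a shared region, 9 (47.4%) were lower and none higher, and after scaling 2 were lower and 3 higher, near the shares of all genes. Fos had 6.40 kb in progenitors, against 19.2 and 17.7 kb, with log2 differences of -1.51 as deposited and -0.02 after scaling. Ier5 had 2.92 kb, against 21.7 kb in each B cell library, and stayed lower at -1.37. Of the 15 housekeeping genes 3 (20.0%) were lower and none higher, near the shares of all genes, and after scaling none was lower and 1 higher.

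Few cell division genes were called as deposited, and more were called higher after scaling. Their summed length was 14.8 kb in progenitors, against 19.6 and 19.5 kb in B cells, and a call needed a difference of over 1 kb in a single gene. Of 25 genes 23 had a region, 7 (30.4%) with a progenitor-only and 6 (26.1%) with a B-cell-only region, 2 were lower and none higher, and the median log2 difference was -0.02, against -0.90 over all genes. The same shares over all genes were 9.09 and 45.0%, with 25.4% lower and 0.806% higher. After scaling 10 of the 23 were higher and 1 lower, against 18.9 and 10.2% of all genes. Ccnb2, a mitotic cyclin gene, had 0.584 kb in progenitors and 0 kb in both B cell libraries, and the mitotic kinase genes Cdk1 and Plk1 had 0.430 and 0.261 kb in progenitors and 0 kb in B cells. Mki67, the proliferation marker gene, had 0.815 kb in progenitors, against 0 and 0.378 kb. Bub1b, a checkpoint kinase gene, was lower, with 0.299 kb, against 3.15 and 2.88 kb. Aurkb was the other lower member, with 0.618 kb, against 1.76 and 1.89 kb, a log2 difference of -1.42, but with only its span and 1 kb around it progenitors kept 0.618 kb and both B cell libraries had 0 kb.

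Of 21262 promoter windows, 129 (0.607%) lay in a progenitor-only region, 1205 (5.67%) in a B-cell-only region and 7183 (33.8%) in a shared region. The regions covered a median of 109 bases of a progenitor-only window, 146 bases of a B-cell-only window and all 300 bases of a shared one. Crebbp-null progenitors had a peak in 55 of the 129 progenitor-only windows (42.6%), against 7.39% of B-cell-only and 66.5% of shared windows. The 129 windows belonged to 114 genes. Among the lists they were those of Il7r, Rag2 and Notch1, of Tcf7, Zap70 and Nkg7, of an upstream start of Foxp1, and of 5 of the 20 cell division genes with a window, which were Ccnb2, Cdc6, Cdk1, Mki67 and Plk1. In all, 0.652% of genes with a window had a progenitor-only one. B-cell-only windows were at 8 of 18 B cell receptor signalling genes, 6 of 15 mature receptor genes and 3 of 11 MHC class II genes, against 6.40% of all genes with a window. Among them were Btk, Ptpn6, Fcgr2b, Ccr6, Fcmr, H2-DMb1 and H2-DMb2.

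Progenitor-only and shared promoters were richer in CpG than B-cell-only promoters. The median number of CpG in the 300 bases was 22 for progenitor-only, 18 for B-cell-only and 24 for shared windows, against 13 over all windows. The progenitor-only windows of Il7r, with 1 CpG, and Rag2, with 3, lay below the median of their class. The ETS core GGAAGT was in 17.8% of progenitor-only windows (23 of 129), 30.2% of B-cell-only and 33.1% of shared windows, against 24.8% of all. The CCAAT motif was in 27.9% of progenitor-only, 43.6% of B-cell-only and 37.1% of shared windows, against 38.2% of all. The E box CANNTG, the site of E proteins, was in 62.8, 64.9 and 59.6% of the 3 classes, against 69.0% of all. The octamer ATGCAAAT was in 1 progenitor-only window (0.775%) and in 1.74% of B-cell-only windows, against 1.66% of all, and the EBF motif in 2 (1.55%) and 0.747%, against 0.959% of all. The Runx motif was in 14.7 and 13.5% of the one-sided classes, against 3183 of all 21262 windows, the AP-1 motif in 2.33 and 4.56%, against 6.99%, the GATA motif in 4.65 and 5.64%, against 6.92%, and the cAMP response element in 1.55 and 2.24%, against 2.23%. No motif searched contains another, both strands were read, and a match is a stretch of letters rather than a bound site.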

How the data were processed

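The authors deposited each ChIP-seq library as peaks given by position alone, with no score, height or read number, so the deposited unit is a position and other values per peak are not given. Per the submitters' processing notes, Bowtie2 2.1.0, Picard, MACS2 2.0.10 and bedtools were used and the build was mm10. There is 1 list per library. Tool roles and settings are not given in the sources used here. Of 30 samples, the peak lists of 15 were read here: 3 form the comparison and 12 were laid over its regions. RNA-seq and input samples were not analysed here.

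Classes, lengths and figures came from Python 3.11.15 with Matplotlib 3.10.9, pandas 2.3.3 and NumPy 2.4.6. Peaks that overlapped or touched were merged, and an overlap of 1 bp was enough to credit a list with a region. Gene spans came from RefSeq (GRCm38.p6, the assembly of mm10), and promoter windows and their sequences from RefSeq on the same assembly. These windows hold 17491 genes and none of chromosome 18. All entries of the 18 gene lists matched a gene. Log2 differences are progenitors minus the mean of B cells on the log2(kb + 0.1) scale, which understates changes at low lengths, and none is given for a gene at 0 kb, except where named as set by the pseudocount. The members, gene lists and calls were chosen with earlier results of these data known, so list counts are descriptions. Genes with more regions have more chances to hold either class, and lists were not matched for this. Genes named are those with the most one-sided or shared sequence, up to 4 members per list with the largest difference, all stage regulators and the 5 widest regions per class. Genes outside this rule were named after their values were seen. Classification was tested on simulated lists. Alternatives changed the overlap, merging, peak width, list length, left-out library, gene assignment and pseudocount.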

Additional observations from a re-analysis of the deposited data

How the results depend on the processing

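No paired analysis was possible because there was 1 progenitor library and no test. Progenitor-only regions numbered 1193 with peaks within 500 bp merged, 623 with peaks of 500 bp or more, 3716 with lists of equal peak number and 12553 with lists of equal covered length, and 1990 to 2078 without a B cell library. B-cell-only regions numbered 7721 when merged, 5467 with equal peak number and 716 with equal length, and 17856 to 18270 without a B cell library. Shared regions numbered 7303 when 50% of a region had to be covered, 5695 with wide peaks and 1956 with equal length, and 12100 to 12173 without a library. Lists shortened by width lose their narrow peaks by construction. The share of progenitor-only regions with a Crebbp-null progenitor peak was 46.3% at 50% cover, 82.8% with wide peaks, 48.8% with equal number, 67.9% with equal length and 43.2 to 43.5% without a library. For B-cell-only regions it was 16.7% at 50% cover, 1.55% merged, 25.8% with wide peaks, 1.54% with equal length and 0.991 to 1.01% without a library. At 50% cover and with wide peaks, a region with a short progenitor peak can count as B-cell-only. The shares in those settings are therefore not of regions free of progenitor peaks, and the size of this part was not tested. Within 2500 bp of a gene end lay 28.9% of progenitor-only, 25.8% of B-cell-only and 71.9% of shared regions, and within 1 kb of a transcription start, chosen after seeing the data, 19.6, 15.2 and 62.2%. Dividing by list length gave 2161 higher and 1160 lower genes and turned Inpp5d (0.13), Sema4d (0.14), Flt3 (0.35), Xbp1 (0.35), Nfkb1 (0.38), Cebpb (0.16) and Cd2 (0.01), and the span and 1 kb alone turned Aurkb (2.84, a size set by the 0.1 kb pseudocount, since both B cell libraries then had 0 kb). Without a B cell library 99 to 104 genes were higher and 3071 to 3224 lower. Of 32 list counts, 13 moved by over 1.5 times with the span and 1 kb only and 13 with equal peak number, where 13 cell division genes had a progenitor-only region. Depth is unknown from positions, so a missing peak is not an absence of the mark.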
